A study of Mus musculus with 10 samples.

Results

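The genes described here build, hold and cut the extracellular matrix: collagens, laminins, fibronectin and related glycoproteins, the integrins that bind them, the matrix metalloproteinases (MMPs) and ADAMTS proteases, and the TIMP inhibitors. Members were all probes with 1 gene symbol in the platform annotation that began as a collagen chain, laminin chain, integrin chain, Adamts, Mmp or Timp gene, or that was Fn1, Vtn, Dcn, Lum, Ogn or Sparc. The choice used names and no measured value. It gave 130 probes of 81 genes, out of 20355 probes on the array and 9930 named genes. A test could be run on 111 of these probes (71 genes), those with a ratio on both arrays of at least 4 mice, against 16939 probes (8711 genes) in all. The other 19 probes left 10 genes without a test. No member probe was found for Lum, Lama2, Lamb1, Itgav or Adamts4.

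The samples were brains of 5 male mice labelled Cin85-/-, 15 weeks old, set against a pool of brain RNA from male wildtype mice of the same age. Cin85 is the adaptor protein encoded by Sh3kbp1. RNA of each mouse was placed on 2 two-colour arrays with the dyes exchanged, so 10 arrays stand for 5 replicates, and the wildtype side is a single pool without a spread of its own. The design text gives 5 wildtype mice in the pool and the labelling protocol gives 6. The mutant channel carries the source name Kdn, which the labels do not explain, while titles and pool name brain; a ratio holds no level, so the tissue could not be checked against its markers. No allele, promoter or strain background is stated for the mutation.

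Collagens I, II, III, V and XI form fibrils, and type IV collagen with laminins forms the sheet of basement membranes. Integrins are paired alpha and beta chains that tie cells to this matrix, MMPs and ADAMTS enzymes cleave it, and TIMPs inhibit the cleavage. In the brain, fibrillar collagens lie mainly in the meninges and around larger vessels, and basement membranes surround the vessels. In whole brain, fewer cells of a type and less RNA per cell cannot be told apart.

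The deposited values were log2 ratios, and neither the numerator nor a possible turning of the dye-exchanged arrays is given in the sources used here. Each probe therefore has 2 readings per mouse. The pair mean is the mean of the 2 arrays as deposited, and it holds the difference between mutant and pool if the exchanged arrays had been turned. The dye term subtracts the mutant-in-Cy3 ratio from the mutant-in-Cy5 ratio and divides the result by 2, and it holds that difference if they had not. The other reading then holds what stays with the dye. A sign below is that of the deposited scale and does not say whether mutant or wildtype was higher. Every array was centred on its median before use.

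Within the 130 members, arrays of the same orientation had Spearman correlations of 0.07 to 0.61 with the mutant in Cy5 and -0.12 to 0.56 with the mutant in Cy3, while the 2 arrays of a mouse had -0.53 to 0.01. The probes of an array share its hybridisation and its pool, so these values are descriptions. The array of mouse 3 with the mutant in Cy3 stood apart. Its ratios had an interquartile range of 1.43 (0.45 to 0.99 on the others), and 23 member values were missing on it (3 to 10 on the others). Each array also held a single extreme ratio, repeated at 65 to 264 probes, and 6 member probes carried such a capped ratio, 3 of them among those tested. The probe of the targeted gene that could be tested, Sh3kbp1 probe 8640, had a pair mean of 0.01 ± 0.14 (SD, n = 5, limma adjusted p = 0.989) and a dye term of 0.12 ± 0.09 (limma adjusted p = 0.442). Neither reading differed from 0, and the part of the transcript it covers is not given, so it gives no check of the label.

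**Figure D1:**
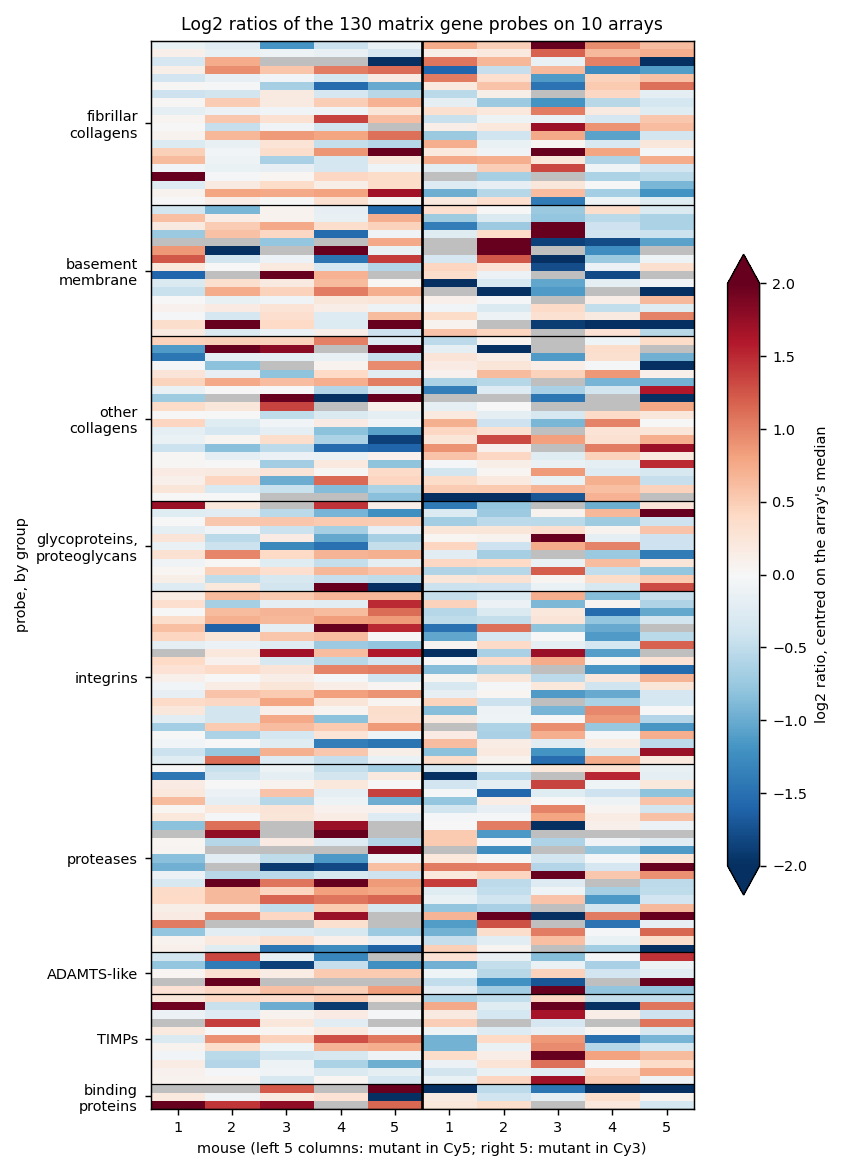
Log2 ratios of the member probes (rows, ordered by role) on the 10 arrays (columns, by mouse and dye of the mutant sample), each array centred on its median. Colour gives the ratio, with sizes above 2 in the end colours, and grey cells have no value. Many rows change colour between the 2 orientations, and the array of mouse 3 with the mutant in Cy3 has the most grey cells of the 10, 23 of 130.

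No matrix gene passed the test in either reading. Of the 111 probes, 0 passed on the pair mean (limma, smallest adjusted p = 0.911) beside 0% of all probes, and 0 passed on the dye term (smallest adjusted p = 0.0988) beside 0% of all probes. At an unadjusted p under 0.05 there were 3 members on the pair mean beside 3.73% of all probes. Of these 3, Col3a1 and Col11a1 were positive (1.94% of all probes) and Adamtsl2 was negative (1.79%). On the dye term there were 33 beside 27.6%, a share of the members close to that of the array. Of these 33, 21 were positive (13.6% of all probes) and 12 negative (14%). The pair means were positive for 58 probes and negative for 53, with a median of 0.005 (all probes 0.001), and the dye terms for 56 and 55, with a median of 0.009 (all probes -0.06).

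For many members the interval of the pair mean was nonetheless narrow. The 95% interval lay within a 1.5-fold change in either direction for 73 of 111 probes (65.8%, all probes 60.7%) and within a 2-fold change for 96 (86.5%, all probes 85.8%). Among integrins this held within 1.5-fold for 17 of 20 probes, and among basement membrane genes for 5 of 12. On the dye term the interval lay within a 2-fold change for 83 of 111 probes (74.8%, all probes 79.5%). The dye term was the larger reading in 86 of 111 probes (77.5%, all probes 70.8%), and in 20 of 20 for the integrins. How much a mutant brain could differ from the pool thus depends on which reading is used.

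**Figure D2:**
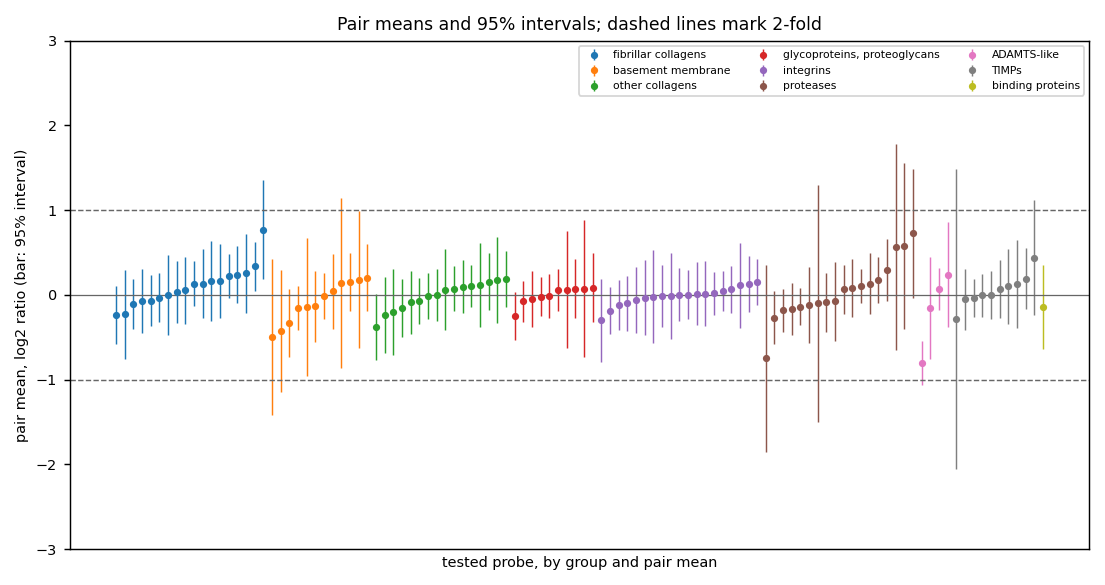
Pair means with 95% intervals (log2, vertical axis) of the 108 tested member probes without a capped ratio, grouped by role. Dashed lines mark a 2-fold change in each direction. Adamtsl2 probe 15409 is the one that lies farthest below 0, at -0.80, and most intervals cross 0.

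The fibrillar collagens comprised 10 genes and 20 probes, of which 18 could be tested. Pair means were positive for 11 and negative for 7, with a median of 0.09, and dye terms for 8 and 10, with a median of -0.17. None passed the test. Col3a1, the type III collagen chain found around vessels and in meninges, had pair means of 0.34, -0.06, 1.43, 0.84 and 1.31 in mice 1 to 5 (probe 19481). Mouse 2 lay near 0 and the other 4 were positive. Its mean was 0.77 ± 0.64 (SD, n = 5, limma adjusted p = 0.911), and without mouse 3 it was 0.61. On the arrays it ranged from -0.07 to 2.66, with the highest ratios on the array of mouse 5 with the mutant in Cy5 and on the one of mouse 3 with the mutant in Cy3.

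Col11a1, a minor fibril chain of cartilage, had 2 probes whose readings went the same way. With the mutant in Cy5, probe 4914 read -0.13, -0.20, -1.18, -0.43 and -0.13 in mice 1 to 5, and with the mutant in Cy3 it read 0.75, 0.48, 2.68, 0.92 and 0.62. The orientations did not overlap, and mouse 3 was the farthest from 0 in each. Its pair mean was 0.34 ± 0.24 and its dye term -0.75 ± 0.67 (n = 5, limma adjusted p = 0.911 and 0.134). Probe 17022 gave 0.22 ± 0.20 and -0.35 ± 0.26. Both probes had a positive pair mean in 5 of 5 mice.

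The type I collagen chains, the bulk of connective tissue fibrils, gave no common sign. Col1a1 probe 4831 had dye terms of 0.86, 0.70, -0.04, 1.15 and 1.12, and mouse 3 stood near 0. The mean was 0.76 ± 0.48 (n = 5, limma adjusted p = 0.102), while its pair mean was -0.003 ± 0.49. Col1a1 probe 4862 had a dye term of the opposite sign, -0.21 ± 0.46. Among the 4 tested Col1a2 probes, dye terms ran from -0.41 (probe 3130) to 0.49 (probe 19482), and pair means from -0.23 to 0.13. Probes of these chains therefore disagreed within a gene. Col2a1, the cartilage fibril chain, had a dye term of 0.53 ± 0.34 and a pair mean of 0.17 ± 0.45 on probe 4379 (n = 5). Probe 19751 had the opposite sign in each reading, with -0.17 ± 0.27 and -0.07 ± 0.26. Both tested probes of Col5a1, which sets fibril diameter, stayed at pair means of 0.16 and 0.04.

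Basement membrane genes were 10, with 16 probes and 12 tested. Pair means were positive for 5 and negative for 7, with a median of -0.08, and dye terms for 7 and 5. Col4a1, a chain of the main type IV network, had pair means of -0.61, -0.11, 1.74, -0.03 and -0.09 on probe 8611, where mouse 3 alone was positive. Its second tested probe, 19383, gave -0.49, 0.48, 1.94, -0.97 and -0.25, and mouse 3 was again the highest. On the array of mouse 3 with the mutant in Cy3 the ratios were 2.72 and 3.46. Means over mice were 0.18 ± 0.90 and 0.14 ± 1.13 (n = 5), so the spread exceeded the mean, and without mouse 3 they were -0.21 and -0.31. Its partner chain Col4a2 gave -0.14 ± 0.90, with mouse 3 among the lowest at -1.15.

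Laminins are trimers of an alpha, a beta and a gamma chain. Lamc1, the common gamma chain of vessel laminins, had 3 tested probes with pair means of -0.02 ± 0.21 (probe 7567, n = 5), 0.21 ± 0.39 (probe 18038, n = 5) and -0.42 ± 0.70 (probe 18428, n = 4). Their signs differed, and none passed the limma test. In the same order, their dye terms were 0.125 ± 0.14, -0.14 ± 0.10 and 1.11 ± 0.84. Lamb2, the beta chain of brain vessel and synaptic laminins, stood at 0.15 ± 0.23 (n = 4). Lama4, an endothelial laminin chain, was -2.30 in mouse 1 and between -0.43 and 0.23 in the others. Col18a1, whose C-terminal fragment is endostatin, had dye terms of 0.44 ± 0.23 and -0.26 ± 0.39 on its probes 17147 and 14794, again of opposite sign.

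The other collagens (14 genes, 20 probes, 16 tested) had 9 positive and 7 negative pair means, with a median of 0.03. On probe 1340, Col23a1, a transmembrane collagen, read 0.45, 0.76, 0.61, 0.73 and 1.03 with the mutant in Cy5. With the mutant in Cy3 it read -0.63, -0.57, -0.93 and -0.94, with no value for mouse 3. The 2 sets did not overlap, and the dye term was 0.75 ± 0.20 (n = 4, limma adjusted p = 0.0988) with a pair mean of -0.01 ± 0.10. Its other tested probe, 6286, had a dye term of 0.009 ± 0.59 and a pair mean of -0.20 ± 0.54 (n = 5), so the split between orientations was not seen there. Col6a4, a type VI chain, had a dye term of -1.02 ± 0.55 (n = 4), and Col6a1, a main type VI chain, -0.01 ± 0.31 (n = 5). Col6a2, another type VI chain, was at -0.46 ± 0.17 (probe 1536, n = 4) and -0.56 ± 0.45 (probe 19514, n = 5). Col9a3, a chain that decorates cartilage fibrils, had dye terms of -0.48 ± 0.23 (probe 13398) and 0.04 ± 0.34 (probe 8236). Col13a1, a transmembrane collagen of the neuromuscular junction, had a pair mean of -0.38 ± 0.38 (n = 5).

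The glycoproteins and small proteoglycans were 5 genes with 11 probes, all tested, with 6 positive and 5 negative pair means. Fn1, fibronectin, the soluble and fibrillar adhesion protein, had 5 of these probes. With the mutant in Cy5, probe 1795 read -0.001, 0.54, 0.55, 0.52 and 0.52, and with the mutant in Cy3 it read -0.70, -0.53, -0.54, -0.72 and -0.41. Probe 3995 ran the other way, with -0.20, -0.07, -0.43, -0.66 and -0.16 against 0.24, 0.24, 0.33, 0.07 and 0.57. Neither probe's orientations overlapped, and the dye terms were 0.50 ± 0.10 and -0.30 ± 0.10 (n = 5, limma adjusted p = 0.0988 and 0.125). Pair means over the 5 Fn1 probes ran from -0.25 to 0.08.

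Sparc, a matricellular protein of astrocytes and endothelium, kept its pair means close to 0 on 3 probes, at 0.06 ± 0.16, 0.09 ± 0.41 and -0.02 ± 0.12 (n = 5). Their dye terms were -0.25, 0.33 and -0.32. Dcn and Ogn are small leucine-rich proteoglycans of connective tissue. Dcn had a pair mean of 0.07 ± 0.24 and Ogn of -0.04 ± 0.21 (n = 4 each), and their dye terms were 0.80 ± 0.73 and 0.71 ± 0.33. Vtn, vitronectin, made by pericytes in brain, had a capped ratio in mouse 4, where the pair mean was 8.30 against -0.83 to -0.10 in the other mice, so its mean carries no weight.

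Integrin chains were 14 genes with 21 probes, 20 of them tested. Pair means split 11 to 9 with a median of 0.004, and excluding the probe with a capped ratio they ran from -0.30 to 0.15. The dye term was positive for 14 and negative for 6, with a median of 0.16, and 6 probes had an unadjusted p under 0.05, all positive, where 13.6% of all probes were positive at that level. Itgb1, the beta chain shared by most matrix integrins, supplied 6 of the 20 probes, 4 of them with a positive dye term, and 10 of the 14 other integrin probes were positive too.

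Itgb1 pair means were -0.19 ± 0.10 on probe 623 (n = 4) and between 0.004 and 0.07 on the other 5. Its dye terms ran from -0.22 ± 0.27 (probe 139) to 0.86 ± 0.39 (probe 623), so probes of one gene lay on both sides of 0. Itga3, a laminin-binding alpha chain, read 0.35, 0.71, 0.67, 0.83 and 0.84 with the mutant in Cy5. With the mutant in Cy3 it read -0.51, -0.47, 0.26, -0.77 and -0.37, and only mouse 3 was positive. Its dye term was 0.53 ± 0.22 and its pair mean 0.15 ± 0.21 (n = 5, limma adjusted p = 0.0988 and 0.911). Itga6, another laminin-binding chain, had a dye term of 0.49 ± 0.29, and Itga2b, the platelet fibrinogen receptor chain, 0.63 ± 0.42. Both were positive in 5 of 5 mice. The 3 probes of Itgb5, a vitronectin receptor chain, had pair means of 0.02, -0.30 and -0.02.

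The catalytic proteases were 18 genes with 23 probes, 19 of them tested. Pair means were positive for 9 and negative for 10 with a median of -0.08, and dye terms also for 9 and 10. Mmp2, the gelatinase that cleaves type IV collagen, had the tightest pair means of those named, at 0.07, 0.08, 0.17, 0.08 and 0.13. All 5 were positive, and the mean was 0.11 ± 0.04 (limma adjusted p = 0.911). Of 13 protease probes measured in all 5 mice, 2 kept the same sign in each (all probes 7.01%). These were Mmp2 and, on the negative side, Adamts16 probe 12340. With the mutant in Cy5 Mmp2 read 0.38 to 0.82, and with the mutant in Cy3 -0.67 to -0.09, giving a dye term of 0.51 ± 0.21 (limma adjusted p = 0.0988).

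Mmp14, the membrane-bound protease that activates proMMP2, had 2 probes. Probe 1993 had pair means of 0.05, -0.06, 2.53, 0.11 and 0.25, and the ratio of mouse 3 with the mutant in Cy3 was 5.59. Without that mouse the other 4 lay between -0.06 and 0.25. Probe 1939 gave 0.04, -1.25, -1.07 and 1.87 in mice 1, 3, 4 and 5, which spans both signs. Their dye terms were -0.96 ± 1.19 (n = 5) and -0.92 ± 0.28 (n = 4), with limma adjusted p = 0.204 and 0.0988. Without mouse 3 the dye term of probe 1993 was -0.44 ± 0.21. Mmp23, a membrane-anchored MMP, had a dye term of 0.59 ± 0.35 (n = 5), and Mmp13, collagenase 3, a pair mean of -0.27 ± 0.28. Mmp17 had a pair mean of 0.73 ± 0.74 (n = 4), positive in 4 of 4 mice. Adamts1, which cleaves the proteoglycans aggrecan and versican, had a pair mean of -0.18 ± 0.18.

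ADAMTS-like proteins lack the catalytic domain and bind microfibrils. Adamtsl2, a fibrillin-binding member, had the smallest unadjusted p of all members on the pair mean. With the mutant in Cy5 it read -0.77, -1.40, -1.87, -0.46 and -1.23, and with the mutant in Cy3 -0.96, -0.47, -0.13, -0.65 and -0.10. All 10 ratios were negative, so it did not change sign with the dye. Its pair means were -0.86, -0.93, -1.0, -0.56 and -0.67, a mean of -0.80 ± 0.19 (n = 5, limma adjusted p = 0.911). After adjustment over 16939 probes it did not pass. Its dye term was -0.34 ± 0.43. The other named members, Adamtsl4 and Adamtsl5, had pair means of 0.07 ± 0.16 and 0.24 ± 0.68, and that of Adamtsl5 was -0.06 without mouse 3.

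The TIMP inhibitors were 4 genes with 11 probes, 10 tested, 5 positive and 5 negative on the pair mean with a median of 0.03. Timp3, the matrix-bound inhibitor, had 4 tested probes. On probe 515 the pair means were 0.15, -0.21, 1.73, 0.25 and 0.27, with mouse 3 the highest, and on probe 447 they stayed between -0.18 and 0.12. The dye terms of Timp3 were -0.72 ± 0.79 (probe 515), 0.56 ± 0.64 (probe 453), 0.28 ± 0.47 (probe 503) and 0.12 ± 0.03 (probe 447). Timp4, expressed in brain, had pair means of -0.05, -0.01 and 0.19 on its 3 probes, and Timp2 0.10 ± 0.46. Timp1, an inducible inhibitor, gave -0.002 ± 0.23 (n = 5, probe 1493) and -0.28 ± 1.82 (n = 4, probe 20342).

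**Figure D3:**
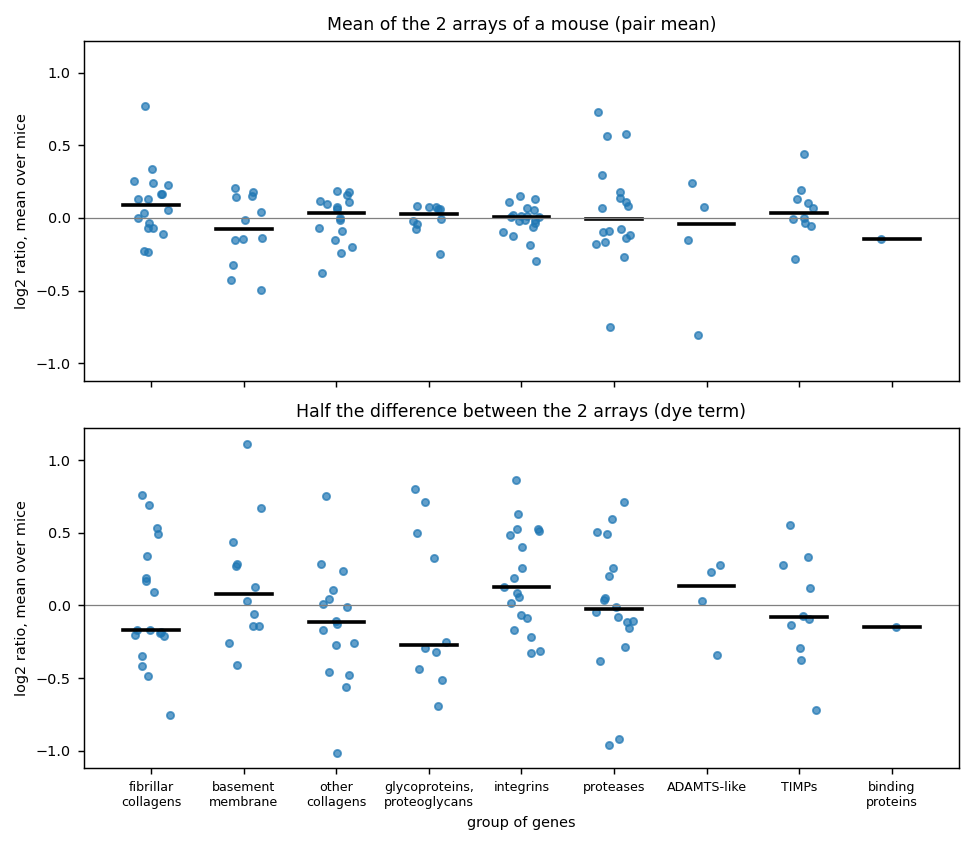
Pair mean and dye term (log2, vertical axes) of the 108 tested member probes without a capped ratio, by role, with black bars at the medians. Pair means of every role with more than 1 probe lie on both sides of 0, and the integrin dye terms lie mostly above 0. The binding proteins have 1 probe, Itgb1bp2, with a pair mean of -0.14.

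Structural matrix, receptors and proteases did not separate on the pair mean. Structural genes (57 tested probes) had medians of 0.06, 0.02, -0.14, -0.03 and 0.01 in mice 1 to 5, receptors -0.08, 0.03, -0.008, -0.09 and 0.11, and proteases 0.04, -0.05, 0.28, -0.03 and 0.12. The ranges overlapped, each class had medians on both sides of 0, and over mice the medians were 0.04, 0.004 and -0.08. On the dye term, receptor medians were positive in 5 of 5 mice (0.05 to 0.34) and structural medians negative in 5 of 5 (-0.11 to -0.004). All probes together were negative as well (-0.07 to -0.01), and proteases spanned 0 (-0.18 to 0.12). No test is given for these medians over lists of genes, and the order on the dye term exists under 1 reading only.

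Probes of one gene did not agree in sign beyond the level of the array. The 25 member genes with 2 or more tested probes gave 66 probe pairs, and 33 of these (50%) had the same sign on the pair mean (all named genes 51.2%). On the dye term 32 did (48.5%, all named genes 49.9%). The orientations did not overlap for 11 of the 87 members with a value on all 10 arrays, beside 15.1% of all such probes. In 5 of them the Cy5 arrays were higher (all probes 6.59%) and in 6 the Cy3 arrays (8.55%). Fn1 and Col11a1 had 2 such probes each, of opposite sign in Fn1 and of the same sign in Col11a1. In 30 of the 64 genes of the whole array with 2 such probes or more the signs were opposite. A value of a single probe thus describes that probe, and cross-hybridisation was not tested.

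**Figure D4:**
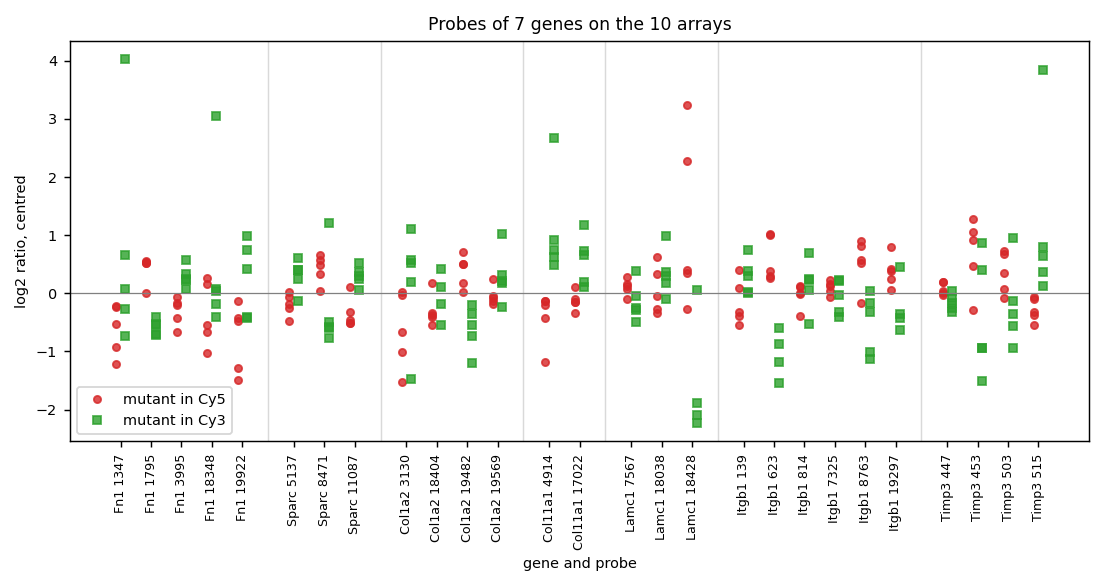
Log2 ratios on each array (vertical axis) for several probes of the same genes, with red circles for the mutant in Cy5 and green squares for the mutant in Cy3. Fn1 probes 1795 and 3995 show the 2 colours in opposite order, and both Col11a1 probes in the same order.

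Agreement between mice was also near the level of the array. Pair means had the same sign in all 5 mice for 6 of 87 members, beside 7.01% of all probes: 2 Col11a1 probes, Col1a2 probe 19569, Mmp2, Adamtsl2 and Adamts16, the last chosen after its values were seen. Dye terms did so for 27 of 87, beside 30.5%.

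The members that passed on the dye term differed between settings. Without mouse 3, 102 members could be tested and 5 passed (4.9%), beside 5.06% of all probes, all with a positive dye term and an adjusted p of 0.04995. They were probes of Col1a1 (4831, 0.96), Col23a1 (1340, 0.75), Col2a1 (4379, 0.65), Itga3 (7573, 0.61) and Col4a1 (8611, 0.58, against 0.27 with mouse 3). The other tested probes of these genes did not pass and had negative dye terms, at -0.39 for Col1a1 probe 4862, -0.07 for Col23a1 probe 6286, -0.25 for Col2a1 probe 19751 and -0.13 for Col4a1 probe 19383. Col23a1 probe 1340 held no dye term of mouse 3 in either fit. On the pair mean 0 passed without mouse 3 (limma, smallest adjusted p of all probes 0.276). When each array was also scaled to a common spread, Col23a1 probe 1340 alone passed (0.78, limma adjusted p = 0.0497), beside 1.52% of all probes. A fit to the 10 arrays with mouse as a random block and a dye covariate passed 19 of 111 members (17.1%) beside 12.1% of all probes. Of these, 14 were positive (all probes 7.33%) and 5 negative (4.8%). Its within-mouse correlation was -0.02, so it counted the 10 arrays nearly as 10 replicates.

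Genes of the same pathways outside the name rule gave 0 calls by limma in either reading. Brain proteoglycans and lecticans (11 genes, 14 probes) had 7 positive and 7 negative pair means with a median of 0.006. Ncan, neurocan of perineuronal matrix, had a dye term of 0.95 ± 0.16 (n = 4, limma adjusted p = 0.0988). Collagen processing enzymes (12 genes, 22 probes) had 10 positive and 12 negative pair means, and 11 dye terms at an unadjusted p under 0.05, 5 positive and 6 negative, where 27.6% of all probes reached that level. Those with the smallest unadjusted p are named first. Among them, Serpinh1 probe 2034, the collagen chaperone, was at -0.41 and Loxl1 probe 2351, a crosslinking oxidase, at -0.51. Plod3, a lysyl hydroxylase, was at 0.56, and Pcolce probe 3553, an enhancer of procollagen cleavage, at 0.74. Other probes of Serpinh1 (3791), Loxl1 (12627) and Pcolce (1492) had dye terms of 0.23, -0.15 and 0.39. Lox reached the unadjusted level on probes 1602, 18433 and 20301, with dye terms of 0.48, -0.30 and -0.29, which differ in sign. Integrin adaptors (8 genes, 10 probes) had 7 positive and 3 negative pair means with a median of 0.09, and ADAM proteases 2 and 3. These lists do not share a sign.

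Markers of cells that hold matrix were measured alongside. For meninges and fibroblasts (9 probes) the pair mean was positive for 3 and negative for 6, with mouse medians from -0.15 to 0.28, the highest in mouse 3. Mouse 3 also had the highest median for neurons (0.30) and myelin (0.20). Endothelium and pericytes (10 probes) had 5 and 5, with a median of -0.02 and the lowest mouse median in mouse 3 (-0.22). Choroid plexus (4 probes of 3 genes) had 0 and 4, with a median of -0.31. Microglia (4 probes) had 1 and 3, neurons (5) 4 and 1, astrocytes (6) 2 and 4, myelin (3) 2 and 1, and kidney markers (4) 2 and 2. No list had a call, and the part of these cells in the matrix values was not tested.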

How the data were processed

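The authors deposited log2 ratios for 10 two-colour arrays, per the file headers. Not given in the sources used here were scanner, background correction, normalization and genome build. Channel intensities did not accompany the deposited log2 values, so signal above background could not be read. Precision rests on the number of mice and the spread of their values. Each array was centred on its median. The 2 arrays of a mouse, a technical dye exchange, counted as 1 replicate. Pair mean and dye term were each compared with 0 by limma 3.58.1 (lmFit, then eBayes; R 4.3.3) over all 16939 probes with both arrays in at least 4 mice, with Benjamini-Hochberg adjustment and a threshold of 0.05. The p-values reflect the spread of the mouse values, which also holds labelling and hybridisation error. For a reading that holds only what stays with the dye, it is no spread of mutant differences. No spread between wildtype mice enters, since the pool is 1 control sample. Probes were named by the annotation of the platform, some of which may be outdated; all 130 members had an Entrez identifier in RefSeq GRCm38.p6 and 0 symbols changed. Probes of a gene were kept apart. Capped ratios (size above 10) were kept, and an alternative set them to missing. The fit was tested on 5 runs of simulated data, with changes set in 200 of 16939 probes. It called 47.2% of the 2-fold changes on the pair mean and 52% on the dye term. At 1.5-fold it called 16.8% and 14%, so a lack of calls does not exclude changes of these sizes.

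The name rule for the members used no measured value, but it and the lists were chosen with earlier results of these data known. Named probes were those past the threshold in either fit, the 3 smallest unadjusted p per role and reading, all tested probes of 28 listed genes (23 had one on the array), and genes with 3 or more probes: 78 probes of 43 genes, with Sh3kbp1 named in addition. Second probes of Col23a1 and Col2a1, the Col6a2 probes, Adamts16 and the Lox probes were added after their values were seen. Not every named probe is described. Alternatives covered other centring and scaling, capped ratios as missing, other completeness limits, single orientations, averaged probes, no variance moderation, a mouse block over 10 arrays and leaving out each mouse. Table columns without a sample numbered 0.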

Additional observations from a re-analysis of the deposited data

Results flagged for a closer look

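Among 148 sets of 4 or 5 mouse values of named probes, 21 had a mouse far from the others by Dixon's limit; chance flags about 1 in 20 groups, and 12 of the 21 were mouse 3, whose array with the mutant in Cy3 stood apart. Pair means set apart in mouse 3 were Timp3 probe 515 (1.73, others -0.21 to 0.27), Mmp14 probe 1993 (2.53), Col4a1 probe 8611 (1.74), Adamtsl5 (1.44), Col11a1 probe 4914 (0.75), Col1a2 probe 19569 (0.49) and Itgb1 probe 814 (-0.20). Dye terms set apart in mouse 3 were Mmp14 probe 1993 (-3.06), Timp3 probe 515 (-2.11), Col11a1 probe 4914 (-1.93), Col4a1 probe 8611 (-0.98) and Timp1 probe 1493 (-0.037).

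In mouse 1, Lama4 stood apart on the pair mean (-2.30) and the dye term (2.00), and Col1a2 probe 19482 on the dye term (0.12). In mouse 2, Itgb5 probe 916 (-0.64) and Dcn (-0.28) stood apart on the pair mean. In mouse 4, Vtn did so on the pair mean (8.30) and the dye term (8.62), with a capped ratio on 1 array. In mouse 5, Fn1 probe 1347 had a pair mean of 1.41 and Itgb1bp2, whose product binds integrin beta-1 but is no integrin chain, had a dye term of -1.07.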

How the results depend on the processing

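No pairing of mutant with wildtype mice was possible, because all arrays belong to 1 mutant group and the wildtype side is a single pool. The 2 arrays of a mouse were paired in the pair mean and the dye term, which reduce each mouse to 1 value. On the pair mean, 0 members passed under every alternative run. Members with an unadjusted p under 0.05 went from 3 to 5 with both arrays of at least 2 mice, to 5 without variance moderation, to 41 with the mutant-in-Cy5 arrays alone and to 16 with the mutant-in-Cy3 arrays alone, and lay between 4 and 5 when each mouse was left out. On the dye term, passing members went from 0 to 1 with scaling, to 19 with the mouse block over 10 arrays, and lay between 0 and 5 when each mouse was left out; unadjusted members went from 33 to 19 with probes of a gene averaged and between 15 and 40 without each mouse. The median of proteases went from -0.076 to 0.066 with both arrays of all 5 mice (-0.095 to 0.12 without each mouse). For receptors it went from 0.004 to 0.158 on the dye term, 0.153 with the mutant in Cy5 alone and -0.219 with the mutant in Cy3 alone (-0.028 to 0.034 without each mouse). For structural genes it went from 0.043 to -0.106 on the dye term (0.003 to 0.06 without each mouse). The cause was not tested, beyond fewer samples or probes where these were left out. Of 1040 recomputed pair means of named probes, 66 moved beyond 1 SD, all with a single orientation, and 124 changed sign; of 818 dye terms 0 moved and 14 changed sign. The unstated direction of the ratios, the single pool and 5 mice limit every value.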

Other observations

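Choroid plexus markers, chosen with earlier results of these data known, had 4 of 4 negative pair means. These were probes of 3 genes, and the rest of the 8 listed genes gave no tested value. Ttr, the thyroid hormone carrier made by the choroid plexus, had pair means of -0.41 ± 0.18 (probe 19) and -0.29 ± 0.42 (probe 2235), and Sostdc1, a secreted antagonist of BMP and Wnt signalling, -0.32 ± 0.14, while Aqp1, a water channel, was near 0 at -0.09 ± 0.23 (n = 5 each). None passed the limma test (adjusted p = 0.911 for the Ttr and Sostdc1 probes and 0.918 for Aqp1). The Ttr probes differed in the sign of the dye term, at 0.34 and -0.46.

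The 1024 capped ratios of the whole table followed the orientation: 384 were positive and 0 negative with the mutant in Cy5, and 0 were positive and 640 negative with the mutant in Cy3.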
